A study of Mus musculus with 4 samples.

Results

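The 58 genes described here encode the subunits of RNA polymerase II (Polr2a to Polr2m), the Mediator complex and the general transcription factors with Gtf2 symbols. A rule on gene symbols picks them out of the 18436 genes of the deposited table, and they comprise 13 Pol II subunits, 30 Mediator subunits and 15 Gtf2 factors. They were measured by RNA sequencing of Lgr5-GFPhigh cells, the brightest GFP+ intestinal cells, from 2 Lgr5-CREPTWT and 2 Lgr5-CREPTKO mice. The control group is named Lgr5-GFP-CreERT2, for GFP and a tamoxifen-inducible Cre recombinase driven from Lgr5, a gene of the stem cells at the crypt base, and the Lgr5-CREPTKO group carries Lgr5-EGFP-ires-creERT2 and CREPT fl/fl, with floxed copies of Rprd1b, the gene for CREPT. Both groups were given daily tamoxifen (1 mg, intraperitoneal) for 5 days, and sorting took place on day 7. The strain was C57BL/6 in the labels, and the mice of the study were 6 to 8 weeks old. Cre driven from Lgr5 deletes in Lgr5-expressing cells, the class that was sorted, and in their progeny, and both groups had tamoxifen. Values are FPKM, fragments per kilobase of transcript adjusted for library size, which summed to 495758 and 499327 in the Lgr5-CREPTWT mice and to 468830 and 473662 in the Lgr5-CREPTKO mice. The table holds no read counts, so the depth behind a value is not known.

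RNA polymerase II transcribes the protein-coding genes of the nucleus. Its largest subunit, Rpb1 (Polr2a), carries a long C-terminal domain (CTD) of repeated heptads whose phosphorylation changes as the enzyme initiates, pauses and elongates. TFIID, TFIIA and TFIIB mark the promoter, TFIIF brings in the polymerase, TFIIE and TFIIH open the DNA, and the kinase of TFIIH phosphorylates the CTD. Mediator bridges DNA-bound activators and this preinitiation complex through its head, middle and tail modules, and a separable kinase module can hold it away from the polymerase. CREPT belongs to the family of CTD-binding proteins, which makes the levels of the polymerase and its partners a natural question when CREPT is removed.

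The stretch of Polr2a that encodes part of the domain that CREPT binds is shown first. Translation of the longest coding transcript gave 1970 residues with 41 heptads of the form tyrosine, serine, proline, any residue, serine, proline, any residue, and 21 of them had the consensus form with threonine and serine at the open places. The run below encodes 6 consecutive consensus heptads, residues 1636 to 1677, in exon 29 of 29, at chr11:69735292-69735417 of GRCm38, on the minus strand. Capitals mark the tyrosine codons that open each heptad.
Polr2a, CTD-coding stretch: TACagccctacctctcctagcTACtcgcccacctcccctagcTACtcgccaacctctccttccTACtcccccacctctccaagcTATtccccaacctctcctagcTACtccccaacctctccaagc

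The promoters of 3 genes to which the results below return are shown next, from RefSeq on GRCm38.p6, as windows of 300 bases that end 50 bases after the transcription start, on the gene's own strand. Capitals mark 6 motifs searched on both strands: the TATA box (TATAAA), the CCAAT box (CCAAT), the GC box (GGGCGG), the ETS core (CCGGAA), the NRF1 site in part (TGCGCA) and the E-box (CACGTG). The promoter of Polr2a is at chr11:69758584-69758883 on the minus strand, that of Gtf2a2 at chr9:70012298-70012597 on the plus strand and that of Med19 at chr2:84678152-84678451 on the plus strand.
Polr2a: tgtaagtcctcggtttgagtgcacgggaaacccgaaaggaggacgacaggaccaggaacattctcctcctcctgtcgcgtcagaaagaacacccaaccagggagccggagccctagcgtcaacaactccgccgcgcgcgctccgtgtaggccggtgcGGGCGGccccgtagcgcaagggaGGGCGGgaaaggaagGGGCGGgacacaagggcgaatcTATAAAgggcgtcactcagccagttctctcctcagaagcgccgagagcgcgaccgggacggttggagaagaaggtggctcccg
Gtf2a2: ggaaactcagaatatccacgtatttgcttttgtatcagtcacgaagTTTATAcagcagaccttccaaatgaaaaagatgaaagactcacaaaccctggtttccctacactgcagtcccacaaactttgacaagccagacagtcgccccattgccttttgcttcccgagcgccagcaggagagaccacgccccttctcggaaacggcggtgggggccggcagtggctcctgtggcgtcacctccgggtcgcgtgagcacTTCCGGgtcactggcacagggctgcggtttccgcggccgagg
Med19: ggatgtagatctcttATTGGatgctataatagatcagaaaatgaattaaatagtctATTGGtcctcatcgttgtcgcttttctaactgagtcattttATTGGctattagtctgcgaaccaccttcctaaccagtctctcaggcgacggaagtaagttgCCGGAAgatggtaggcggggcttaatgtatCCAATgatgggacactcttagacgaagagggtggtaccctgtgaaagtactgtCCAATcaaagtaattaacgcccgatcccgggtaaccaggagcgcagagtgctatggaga
Polr2a had TATAAA beginning 33 bases before the start, with 3 copies of GGGCGG upstream of it. Gtf2a2 had TATAAA in reverse complement 204 bases before the start and CCGGAA in reverse complement 9 bases into the transcript. Med19 had 5 copies of CCAAT, counting both strands, and 1 of CCGGAA. A promoter was found for 50 of the 58 genes. The ETS core occurred in 24 of the 50 (48%), against 29.0% of the 9498 promoters of genes tested and 15.2% of all 27025. The NRF1 letters occurred in 13 (26%), against 14.6% and 8.06%. The GC box occurred in 31 (62%), against 64.0% and 35.9%, and the CCAAT box in 17 (34%), against 39.3% and 37.9%. The E-box occurred in 9 (18%), against 10.4% and 7.24%, and the TATA box in 7 (14%), against 7.20% and 14.2%. The letters were matched only within these windows, and a match is not a binding site.

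The targeted gene was low in both Lgr5-CREPTKO mice. Rprd1b was 17.7 and 18.1 FPKM in the Lgr5-CREPTWT mice and 6.65 and 7.36 FPKM in the Lgr5-CREPTKO mice, so the genotypes did not overlap and the mean was 39.2% of the control mean. Its log2 fold change was -1.29 (95% confidence interval -1.54 to -1.05; limma adjusted p = 0.0280, lower in 2 of 2 mice). In RNA from many cells, fewer cells of a type and less RNA per cell cannot be told apart, here and below. Fold changes throughout are Lgr5-CREPTKO against Lgr5-CREPTWT on the log2(FPKM + 0.5) scale, whose added 0.5 shrinks fold changes at low FPKM. The 12621 genes averaging 0.5 FPKM or more were tested with limma and Benjamini-Hochberg adjustment, and called at an adjusted p below 0.05. With 2 mice against 2, the smallest p an exact permutation test can reach is 0.333, so each call depends on limma's sharing of variance between genes. With any 1 mouse left out, 0 of the 12621 genes were called, Rprd1b included (adjusted p from 0.144 to 0.305), and its call was also lost with no filter on low values (0.116) and with no intensity trend (0.0623).

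The share of the machinery's genes past the threshold was near that of all genes tested. The looser counts below held a larger share of lower genes than among all genes. Of the 58 genes, 57 passed the filter, and the exception was Med12l. limma called 1 of the 57 lower in Lgr5-CREPTKO cells, Gtf2a2 (1.75%), where 337 of all genes tested (2.67%) were called lower, and it called 0 of the 57 higher, where 52 of all genes (0.412%) were. At an unadjusted p below 0.05 the counts were 15 lower (26.3%) and 3 higher (5.26%), against 15.2% and 9.27% of all genes. Both Lgr5-CREPTKO values were below both control values for 31 genes (54.4%) and above them for 12 (21.1%), against 31.0% and 25.6% of all genes. With a log2 fold change beyond 1 required as well, 0 of the 57 were called in either direction, against 1.01% of all genes lower and 0.127% higher. The median log2 fold change of the 57 was -0.13, with 38 negative and 19 positive, and that of all genes was -0.01. Individual changes ranged from -0.68 to 0.41. With every library scaled to the same sum, the median of the 57 was -0.06 and that of all genes 0.06, 35 of the 57 were negative, and 25.9% of all calls were of higher genes in place of 13.4%. Without Lgr5-CREPTWT mouse 2, the median of the 57 was -0.07.

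**Figure D1:**
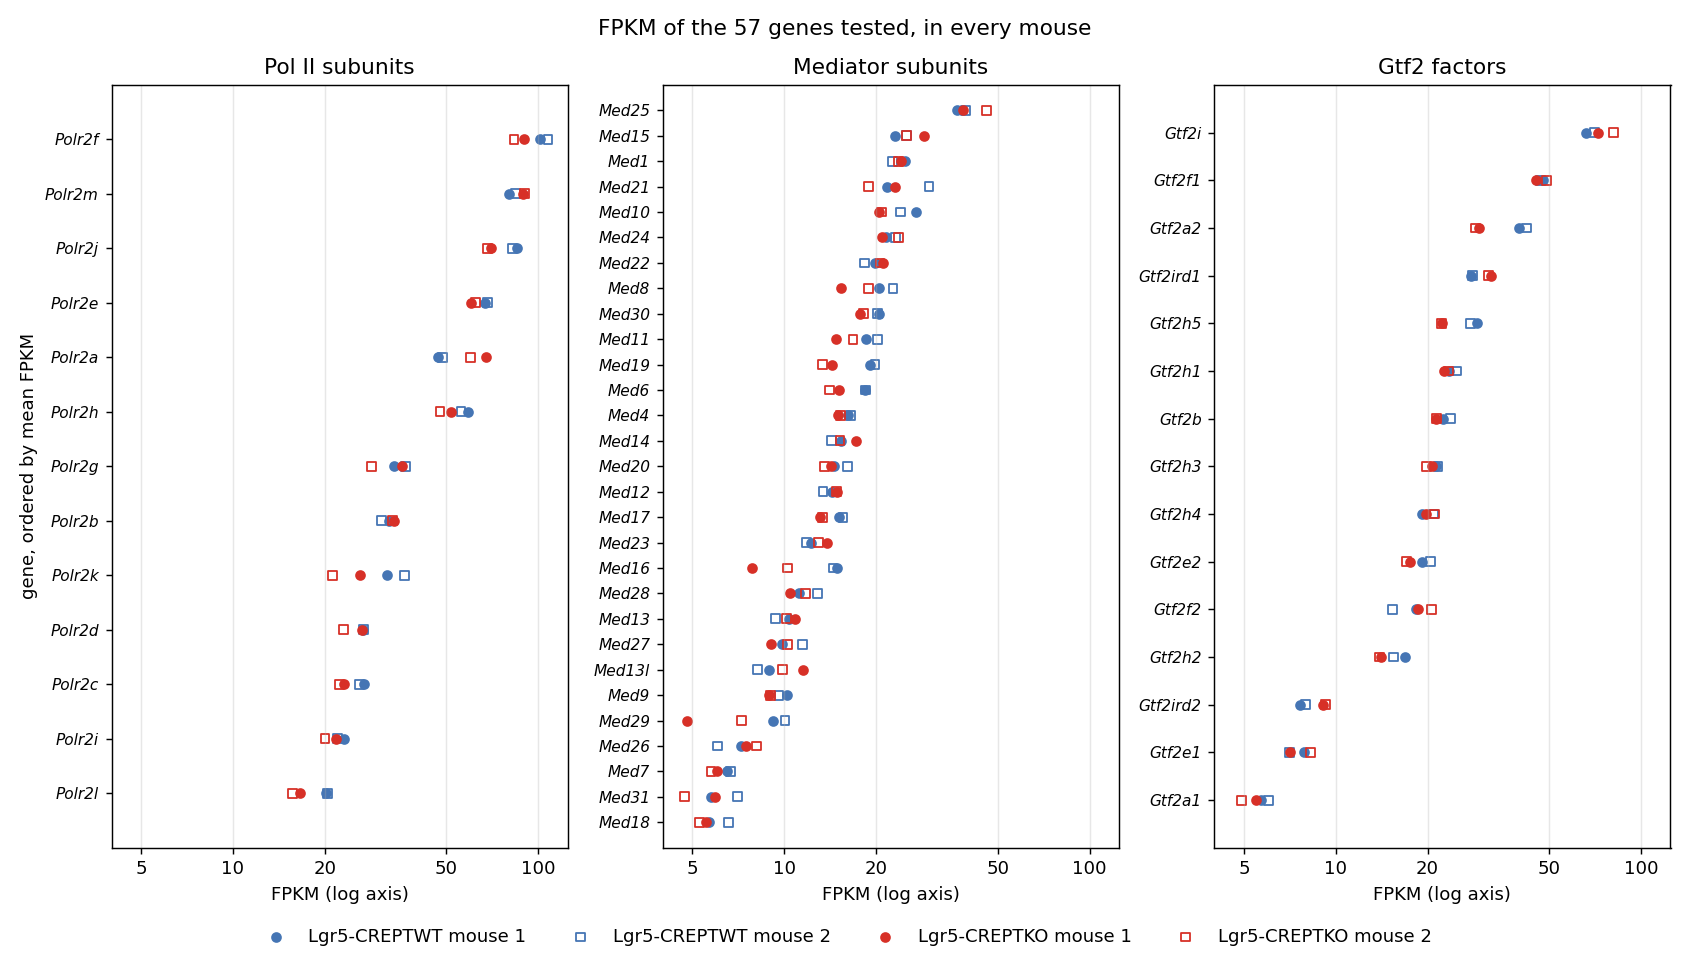
FPKM (log axis) of the 57 genes tested in each of the 4 mice, 1 row per gene, ordered by mean within each group; blue, Lgr5-CREPTWT; red, Lgr5-CREPTKO. Polr2a and Gtf2a2 show genotypes that stand apart in opposite directions, and Med12l, at 0.01 to 0.09 FPKM, is not drawn.

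Most of the genes were expressed above the middle of the genes tested. The median of their mean FPKM was 19.2, against 11.7 for all genes tested, and 44 of the 58 lay above the latter. Pol II subunits had the highest median level, 33.6 FPKM, from 18.2 for Polr2l to 95.7 for Polr2f. Mediator subunits had a median of 14.5 FPKM, from 0.05 for Med12l to 40.2 for Med25. Gtf2 factors had a median of 20.8 FPKM, from 5.52 for Gtf2a1 to 72.6 for Gtf2i. Mice of a genotype were alike. The median absolute difference between the mice of a genotype was 0.08 on the log2 scale in Lgr5-CREPTWT and 0.09 in Lgr5-CREPTKO cells for the 57 genes, against 0.13 and 0.13 for all genes tested. The median of the 95% confidence interval's half-width was 0.22 for the 57, so for most of them a change well under that size could not reach an unadjusted p of 0.05. A call needed more, as Med19 at -0.48 and Polr2a at 0.41 were not called.

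Within Pol II, the catalytic subunit Polr2a was 46.9 and 48.7 FPKM in the Lgr5-CREPTWT mice and 67.4 and 60.0 FPKM in the Lgr5-CREPTKO mice. Both Lgr5-CREPTKO values were above both control values, and the difference exceeded the gap between mice of a genotype. Its log2 fold change of 0.41 (95% confidence interval 0.19 to 0.63) had a limma adjusted p of 0.0732 and was not called. It was the most positive of the 57. Polr2b, which forms the other side of the active-site cleft, was 32.4 and 30.7 FPKM in the control and 33.6 and 33.3 FPKM in the Lgr5-CREPTKO mice (log2 fold change 0.08). Polr2m, or Gdown1, which joins the polymerase as an extra subunit that makes it depend on Mediator, was 80.0 and 84.3 FPKM against 89.0 and 90.3 FPKM (log2 fold change 0.13, adjusted p = 0.321 by limma). These 3 were the Pol II genes with a positive change. With every library scaled to the same sum, Polr2a had 0.49, Polr2b 0.16 and Polr2m 0.20.

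The 5 subunits that Pol I, Pol II and Pol III share, Polr2e, Polr2f, Polr2h, Polr2k and Polr2l, all had lower values in both Lgr5-CREPTKO mice than in either control. The same held for 31.0% of all genes, and none of the 5 was called. Their longest coding transcripts had a median of 950 bases, and 70.7% of all genes under 1000 bases had a negative log2 fold change. Polr2k had the most negative change of any Pol II gene. It was 32.1 and 36.6 FPKM in the Lgr5-CREPTWT mice and 26.01 and 21.23 FPKM in the Lgr5-CREPTKO mice (log2 fold change -0.53, limma adjusted p = 0.0935). Its mice differed widely within each genotype, and 21.6% of the 50-base words of its transcripts also occur in another gene, mostly the pseudogene Gm14567. Polr2l was 20.2 and 20.4 FPKM against 16.6 and 15.7 FPKM (log2 fold change -0.32, adjusted p = 0.0962), with 20.9% of its words shared, mostly with Usp50. Polr2f, the most abundant gene of the 58, was 101.7 and 107.8 FPKM against 90.2 and 83.4 FPKM (log2 fold change -0.27, adjusted p = 0.123). Polr2h and Polr2e had log2 fold changes of -0.21 and -0.14. Summed over the 5, FPKM was 280.1 and 288.7 in the control and 244.9 and 230.3 in the Lgr5-CREPTKO mice, a ratio of means of 0.835, in libraries whose total FPKM was lower too, as given above.

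Of the subunits particular to Pol II, Polr2j, which pairs with Polr2c in the assembly platform, was 85.4 and 82.4 FPKM in the Lgr5-CREPTWT mice and 70.2 and 68.4 FPKM in the Lgr5-CREPTKO mice (log2 fold change -0.27, limma adjusted p = 0.0943). Polr2c and Polr2i had log2 fold changes of -0.21 and -0.11. The stalk subunits Polr2d and Polr2g, which hold nascent RNA near the exit channel, had -0.11 and -0.14, and those of Polr2g overlapped between genotypes. Exons of Polr2j, Polr2i and Polr2c overlap a gene on the opposite strand over 15.9%, 26.8% and 18.1% of their bases, and whether the libraries kept the strand is not given in the sources used here. Over the 13 Pol II subunits, limma called 0 in either direction, against 2.67% of all genes lower and 0.412% higher. At unadjusted p < 0.05, 6 were lower (46.2%) and 1 was higher (7.69%), against 15.2% and 9.27% of all genes. Genotypes did not overlap in the lower direction for 9 (69.2%) and in the higher for 3 (23.1%), against 31.0% and 25.6%. The median log2 fold change was -0.14, with 10 of 13 negative. Under the 3 other scalings 10 were negative too, but the median was -0.063 with the same sum, -0.0996 with quantile normalization and -0.116 with median centring. With the same sum, Polr2e had -0.063, Polr2h -0.13, Polr2c -0.14, Polr2g -0.060, Polr2d -0.034 and Polr2i -0.038. With the correction for transcript length and GC content described below, it was -0.00014, with 7 of 13 negative, and Polr2d, Polr2g and Polr2i turned positive. Without Lgr5-CREPTKO mouse 1 the median was -0.23. Without Lgr5-CREPTKO mouse 2, Polr2d had -0.014 and Polr2i -0.056, and without Lgr5-CREPTWT mouse 2, Polr2b had 0.048.

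**Figure D2:**
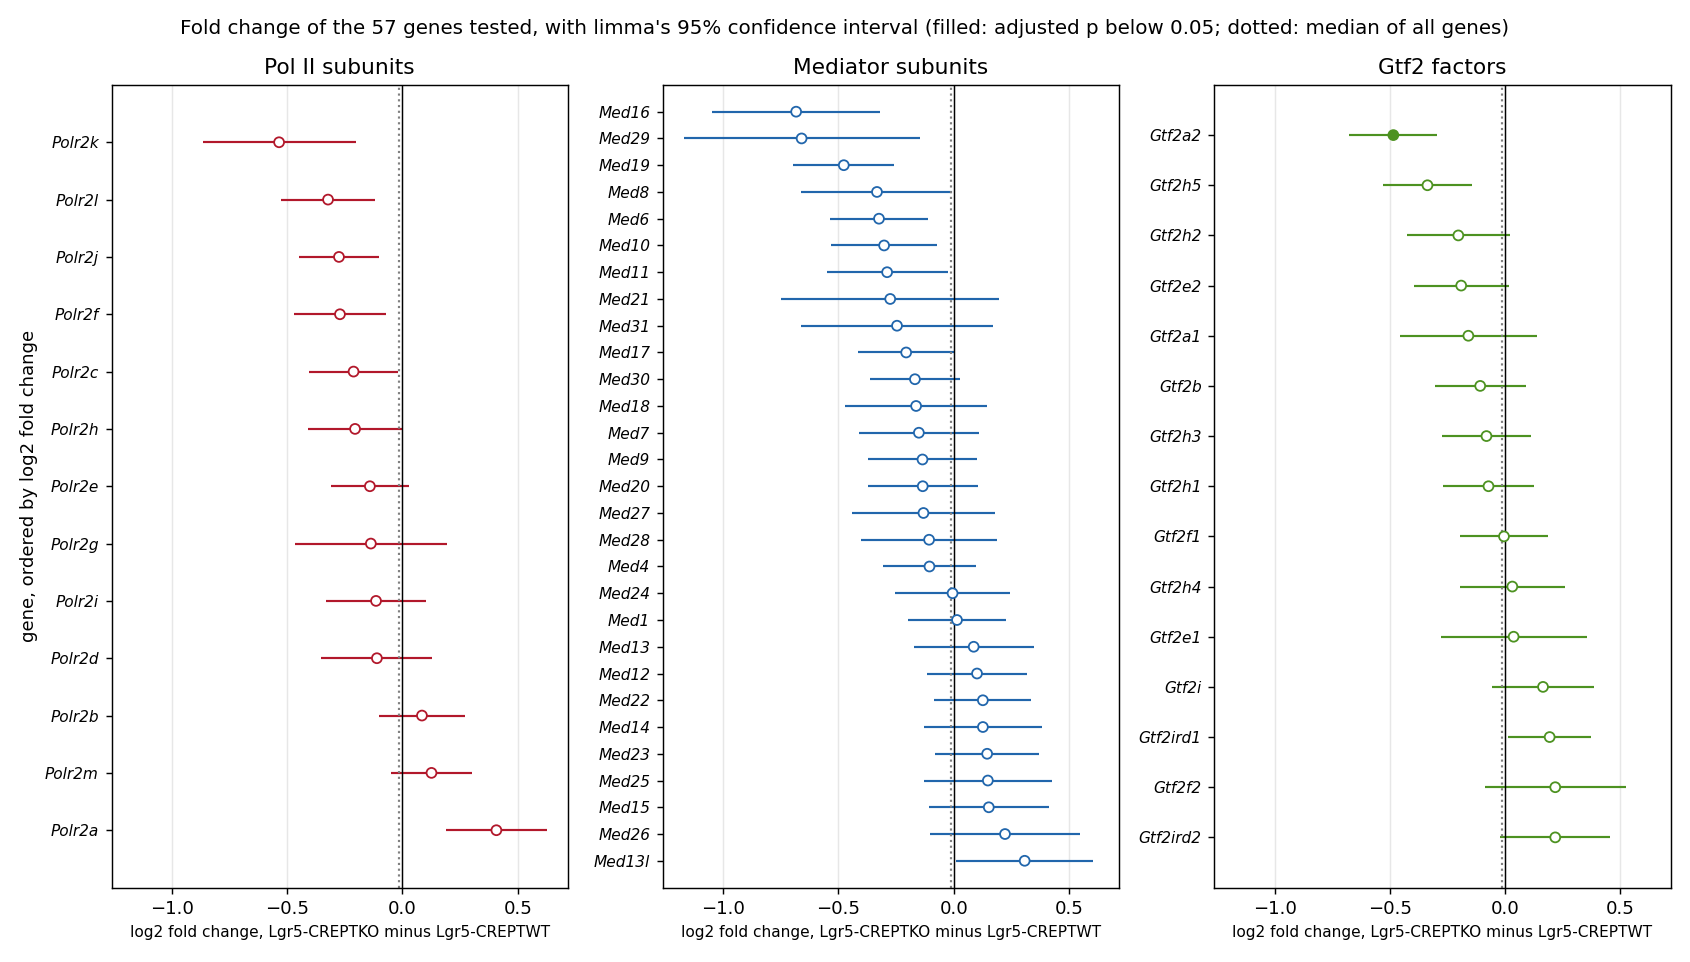
Log2 fold change of each of the 57 genes with limma's 95% confidence interval, by group and ordered by size; the only filled point, Gtf2a2, had an adjusted p below 0.05, and the dotted line is the median of all genes tested, -0.01. Most intervals include 0, and Polr2a, Med13l and Gtf2ird1 are the genes whose interval lies above it.

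Among the Mediator subunits, limma called 0 of 29 tested in either direction. At unadjusted p < 0.05, 7 were lower (24.1%) and 1 was higher (3.45%), against 15.2% and 9.27% of all genes. The median log2 fold change was -0.13, with 19 of 29 negative (18 under each of the 3 other scalings). The genotypes did not overlap for 14 in the lower direction (48.3%) and 5 in the higher (17.2%), against 31.0% and 25.6% of all genes. Without Lgr5-CREPTWT mouse 2 the median was -0.06. The 7 head subunits, which contact the polymerase directly, had a median of -0.21, and 6 of them were lower in both Lgr5-CREPTKO mice than in either control. Med6, a conserved head subunit, was 18.4 and 18.4 FPKM in the Lgr5-CREPTWT mice and 15.1 and 14.1 FPKM in the Lgr5-CREPTKO mice (log2 fold change -0.32, limma adjusted p = 0.102). Med8 and Med11 had log2 fold changes of -0.33 (-0.19 without Lgr5-CREPTKO mouse 1) and -0.29.

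In the middle module, Med19 came closest to a call. It was 19.1 and 19.8 FPKM in the Lgr5-CREPTWT mice and 14.4 and 13.3 FPKM in the Lgr5-CREPTKO mice. The genotypes stood apart by far more than the mice within them (log2 fold change -0.48, 95% confidence interval -0.70 to -0.26; limma adjusted p = 0.0601), and 12.0% of its exonic bases overlap Zdhhc5 on the opposite strand. Med10 was 27.0 and 24.1 FPKM against 20.4 and 20.8 FPKM (log2 fold change -0.30), but 92.8% of its exonic bases overlap the opposite-strand noncoding gene Gm26819. Med1, the subunit that binds nuclear receptors, was 24.8 and 22.7 FPKM against 24.1 and 23.7 FPKM, so its genotypes overlapped. Med26, which recruits elongation factors, had the second most positive change of Mediator, 0.22, at 7.22 and 6.04 FPKM against 7.48 and 8.11 FPKM (adjusted p = 0.347 by limma), and it had 0.10 without Lgr5-CREPTWT mouse 2. Med14, the scaffold on which the modules assemble, had a log2 fold change of 0.13 (0.040 without Lgr5-CREPTKO mouse 1), and its genotypes overlapped.

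The tail module, which receives activators, held both the most abundant Mediator genes and the most negative one. Med16 was 14.9 and 14.4 FPKM in the Lgr5-CREPTWT mice and 7.84 and 10.2 FPKM in the Lgr5-CREPTKO mice. Both knockout values were below both controls, with a wider gap between the knockout mice than between the controls (log2 fold change -0.68, 95% confidence interval -1.05 to -0.32; limma adjusted p = 0.0728). Med25 was 36.7 and 39.3 FPKM against 38.6 and 46.0 FPKM (log2 fold change 0.15), and Med15 was 23.0 and 25.2 FPKM against 28.7 and 25.1 FPKM (0.15), so both overlapped between genotypes. Med25 had 0.023 without Lgr5-CREPTKO mouse 2 and Med15 0.057 without Lgr5-CREPTKO mouse 1. Med29, at the junction of head and tail, was 9.21 and 10.1 FPKM against 4.81 and 7.23 FPKM (log2 fold change -0.66, adjusted p = 0.135 by limma), and its log2 fold change was -0.39 without Lgr5-CREPTKO mouse 1.

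The kinase module pairs Med12 and Med13, or their paralogs Med12l and Med13l, with cyclin C and Cdk8 or Cdk19. Med12 was 14.3 and 13.4 FPKM in the Lgr5-CREPTWT mice and 14.9 and 14.9 FPKM in the Lgr5-CREPTKO mice (log2 fold change 0.10). Med12l was nearly absent, at 0.09 and 0.09 FPKM against 0.01 and 0.01 FPKM, below the filter, and was not tested. Med13 was 10.4 and 9.33 FPKM against 10.8 and 10.2 FPKM (log2 fold change 0.09). Without Lgr5-CREPTWT mouse 2, Med12 had 0.056 and Med13 0.014. Med13l was 8.89 and 8.19 FPKM against 11.5 and 9.88 FPKM (log2 fold change 0.31, limma adjusted p = 0.195, and 0.20 without Lgr5-CREPTKO mouse 1), the most positive change of Mediator. Both paralogs of Med13 were thus present at similar levels, whereas Med12 had hardly any partner paralog. Of the kinase partners, Cdk8 was 30.8 and 29.3 FPKM against 27.95 and 29.03 FPKM, Cdk19 9.21 and 9.93 FPKM against 10.3 and 10.6 FPKM, and Ccnc (cyclin C) 7.61 and 8.09 FPKM against 6.95 and 6.42 FPKM. limma called 0 of these 3, and at an unadjusted p below 0.05 also 0, with the most negative log2 fold change being -0.22 for Ccnc.

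Of the Gtf2 genes, only Gtf2a2 was called. Gtf2a2, the small subunit of TFIIA, which steadies TBP on the promoter, was 39.7 and 42.1 FPKM in the Lgr5-CREPTWT mice and 29.5 and 28.7 FPKM in the Lgr5-CREPTKO mice. The genotypes did not overlap and the mice within each were close. Its log2 fold change was -0.48 (95% confidence interval -0.67 to -0.29; limma adjusted p = 0.0473). The call was near the threshold and was lost in 11 of 14 alternatives, among them every other scaling, the replicate block and the correction for transcript length and GC content, with an adjusted p from 0.0429 to 0.305. Gtf2a2 kept its sign in all 14, from -0.53 to -0.29, though filters, trend and replicate block leave its log2 fold change as it is. Its partner Gtf2a1, which encodes the precursor of the large TFIIA subunits, was 5.67 and 6.03 FPKM against 5.47 and 4.91 FPKM (log2 fold change -0.16, adjusted p = 0.449, and -0.088 without Lgr5-CREPTKO mouse 2). Gtf2a1l, the germ-cell form, was not among the genes analysed here.

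Gtf2h5, the smallest subunit of TFIIH, was 29.0 and 27.6 FPKM in the Lgr5-CREPTWT mice and 22.4 and 22.2 FPKM in the Lgr5-CREPTKO mice (log2 fold change -0.34, limma adjusted p = 0.0811). Gtf2h2, in the core of TFIIH, was 16.9 and 15.5 FPKM against 14.1 and 13.9 FPKM (log2 fold change -0.20, and -0.13 with the same sum). TFIIB, a single polypeptide (Gtf2b), was 22.4 and 23.7 FPKM against 21.3 and 21.4 FPKM. Of the TFIIF subunits, Gtf2f1 was 47.9 and 46.8 FPKM against 45.5 and 48.9 FPKM (log2 fold change -0.01, with a sign that turned with every other scaling), and Gtf2f2 was 18.3 and 15.3 FPKM against 18.6 and 20.6 FPKM (0.22, and 0.092 without Lgr5-CREPTWT mouse 2). The genes of the TFII-I family carry the Gtf2 symbol, although they act as DNA-binding regulators rather than as parts of the preinitiation complex. All 3 had higher values in both Lgr5-CREPTKO mice than in either control. Gtf2i was 66.2 and 70.5 FPKM against 72.4 and 81.1 FPKM (log2 fold change 0.16, and 0.083 without Lgr5-CREPTKO mouse 2), Gtf2ird1 27.7 and 28.1 FPKM against 32.3 and 31.6 FPKM (0.19, limma adjusted p = 0.182), and Gtf2ird2 7.65 and 7.98 FPKM against 9.06 and 9.27 FPKM (0.22). Over the 15 Gtf2 factors, limma called 1 lower (6.67%) and 0 higher, against 2.67% and 0.412% of all genes. At unadjusted p < 0.05, 2 were lower (13.3%) and 1 was higher (6.67%), against 15.2% and 9.27% of all genes. Genotypes did not overlap in the lower direction for 8 (53.3%) and in the higher for 4 (26.7%), against 31.0% and 25.6%. The median log2 fold change of the 15 was -0.07, with 9 negative. It changed sign, to 0.0045 with 7 negative, with every library scaled to the same sum. Without Lgr5-CREPTWT mouse 2 it was -0.04.

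The direction of change went with the length of the transcript. All 9 of the 57 genes with a longest coding transcript under 1000 bases had a negative log2 fold change (median -0.27), as had 17 of 19 from 1000 to under 2000 bases (-0.16) and 6 of 8 from 2000 to under 3000 bases (-0.11). From 3000 to under 5000 bases 5 of 13 were negative (median 0.08), and at 5000 bases and over 1 of 8 was (0.11), the exception being Gtf2a1. The same was seen across all genes tested, whose medians in those ranges were -0.22, -0.13, -0.05, 0.02 and 0.13. Across the 57 genes, Spearman's rho of log2 fold change with length was 0.61, and across the 12494 genes tested with a known length it was 0.36. These are descriptions across genes that come from the same 4 libraries, and genes are not independent replicates. Taken mouse against mouse across all genes, rho was 0.35, 0.24, 0.38 and 0.29 in the 4 pairs between genotypes (Lgr5-CREPTKO minus Lgr5-CREPTWT), and -0.11 and -0.15 in the pairs within Lgr5-CREPTWT and within Lgr5-CREPTKO (mouse 2 minus mouse 1). Across the 57 genes, these were 0.50, 0.59, 0.54 and 0.62, and -0.26 and 0.11. Within a genotype, rho reached -0.47 for Mediator (Lgr5-CREPTWT) and 0.45 for Pol II (Lgr5-CREPTKO). With the fold change between genotypes, those groups had 0.68 and 0.53. Set against the median of all genes of their own length range, 35 of the 57 were below and 22 above, 6 and 7 of the Pol II subunits, 22 and 7 of the Mediator subunits, and 7 and 8 of the Gtf2 factors.

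**Figure D3:**
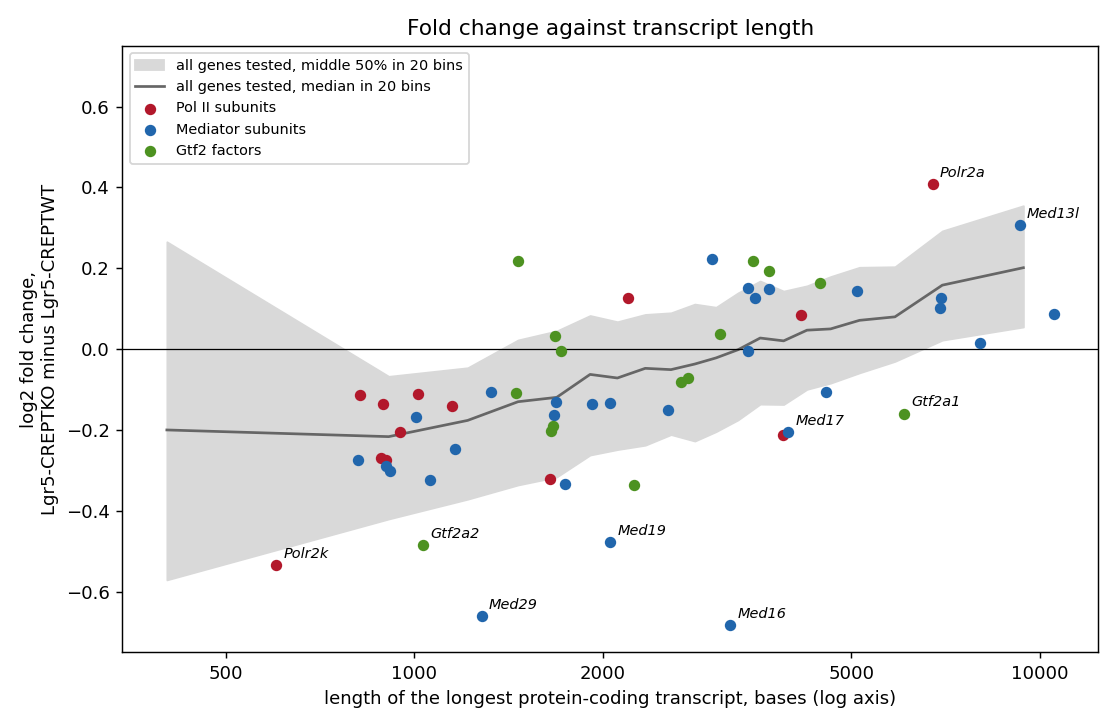
Log2 fold change of the 57 genes (points, coloured by group) against the length of the longest protein-coding transcript in bases (log axis), over the median (line) and middle 50% (band) of all genes tested in 20 bins of equal number. Points and line climb together from left to right, with Med16, Med29 and Med19 below the band and Polr2a above it.

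With a correction of every library for length and GC content, an alternative that was chosen after seeing the data, the median log2 fold change was -0.01 for the 57 genes, -0.00014 for Pol II, -0.06 for Mediator and 0.04 for the Gtf2 factors. limma then called 0 of the 57, while 8 were lower and 3 were higher at unadjusted p < 0.05, against 1456 and 1001 of the 12494 genes in that fit. Gtf2a2 had a log2 fold change of -0.29 (adjusted p = 0.112), Polr2a 0.26 (0.178), Polr2k -0.15 (0.555) and Polr2f -0.12 (0.50) in that fit. Med16 had -0.75 (adjusted p = 0.0635 by limma), Med29 -0.53 and Med19 -0.38. Many of the smaller differences nearly vanished. This was partly built in, because the correction takes out of each library whatever goes with length or GC content across genes. A genotype difference that goes with length is removed whatever its source, and that source was not tested. Of the other shared subunits, Polr2h had -0.00014 and Polr2e -0.013, and Polr2j had -0.085. In Mediator, Med6 had -0.074, Med11 -0.078, Med10 -0.082, Med25 0.084, Med14 0.029 and Med13l 0.093. Of the Gtf2 genes, Gtf2h2 had -0.00048, Gtf2h5 -0.21 and Gtf2i 0.10, while Gtf2f2 had 0.37. Among the partner factors, Ccnh had -0.033, Ccnc -0.073 and Rpap1 0.18. The stalk subunits Polr2d and Polr2g and Polr2i turned positive, at 0.10, 0.09 and 0.09, and Med12 and Med13 negative, at -0.06 and -0.06. Rprd1b kept -1.35 and its call (0.0238).

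The partner factors outside the 58 genes were examined by lists chosen for their role. Of all genes tested, 2.67% were called lower and 0.412% higher, and 15.2% and 9.27% were so at unadjusted p < 0.05. Of the 16 subunits of TFIID, which carries TBP to the promoter, limma called 1 lower and 0 higher, 5 were lower and 1 was higher at unadjusted p < 0.05, and the median log2 fold change was -0.12. The one called was Taf10, a histone-fold subunit that TFIID shares with the SAGA coactivator. Taf10 was 76.1 and 85.7 FPKM in the Lgr5-CREPTWT mice and 32.1 and 35.9 FPKM in the Lgr5-CREPTKO mice, with no overlap. Its log2 fold change was -1.24 (95% confidence interval -1.49 to -0.99; limma adjusted p = 0.0280, lower in 2 of 2 mice), close in size to that of Rprd1b. It was called under each of the 3 other scalings and with the replicate block, and not with a mouse left out (0.144 to 0.305), with no filter (0.116) or with no intensity trend (0.0657). Of the exonic bases that GENCODE assigns to Taf10, 45.9% overlap Ilk on the opposite strand. They include a transcript of 4281 bases that extends beyond the RefSeq locus, chr7:105742894-105744375 on GRCm38.p6, so the length of Taf10 is uncertain. Tbp was 14.0 and 15.95 FPKM against 10.6 and 10.3 FPKM (log2 fold change -0.50, adjusted p = 0.0701). Taf4b, a cell-type-restricted form of Taf4, was 3.24 and 3.46 FPKM against 5.13 and 5.02 FPKM (0.53, adjusted p = 0.0804).

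Of the 5 other subunits of TFIIH, limma called 0 in either direction, and 1 was lower at an unadjusted p below 0.05 (20%, against 15.2% of all genes). It was Ccnh, cyclin H, the partner of the CTD kinase Cdk7, at 16.1 and 15.6 FPKM against 13.6 and 13.4 FPKM (log2 fold change -0.22, adjusted p = 0.177). Of 12 genes for polymerase assembly and CTD phosphatases, limma called 0, with 1 lower and 1 higher at unadjusted p < 0.05 (8.33% each, against 15.2% and 9.27% of all genes). Ctdsp1, a small CTD phosphatase, was 56.7 and 62.4 FPKM against 44.9 and 47.5 FPKM (log2 fold change -0.36, adjusted p = 0.0846). Rpap1, a factor in the assembly of Pol II, was 13.4 and 13.5 FPKM against 16.4 and 17.2 FPKM (0.31, adjusted p = 0.105).

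**Figure D4:**
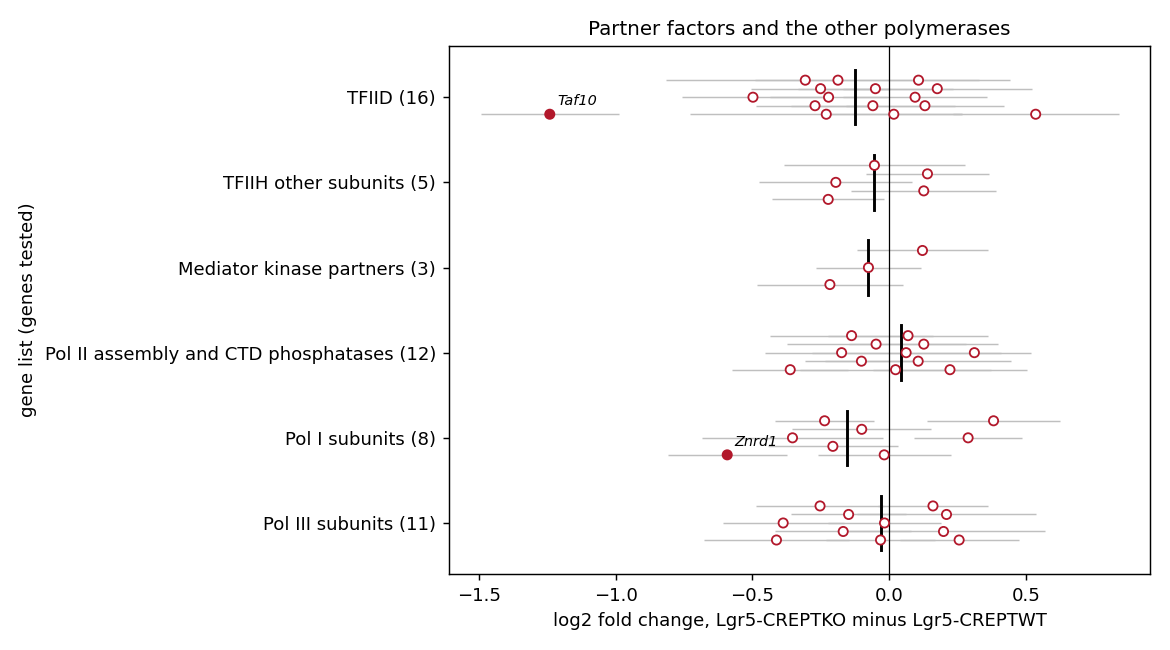
Log2 fold change of the genes of 6 lists, with limma's 95% confidence intervals in grey, the median of each list as a black bar and filled points for an adjusted p below 0.05. Taf10 in TFIID and Znrd1 in Pol I are the filled points, and both are negative.

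Of the secretory lineages listed, limma called markers of enteroendocrine cells only, and those called were lower in the Lgr5-CREPTKO mice. Goblet and tuft markers went the same way without calls. Of all genes tested, 2.67% were called lower and 0.412% higher, and 15.2% and 9.27% were so at unadjusted p < 0.05. For 31.0% of all genes, both Lgr5-CREPTKO values were below both control values. Stem cell markers marked the cells in all 4 mice, with a summed level of 6316 and 6087 FPKM in the Lgr5-CREPTWT mice and 6782 and 6564 FPKM in the Lgr5-CREPTKO mice, led by Olfm4. Lgr5 itself was 47.7 and 37.7 FPKM against 52.0 and 60.1 FPKM (log2 fold change 0.40, limma adjusted p = 0.176, and 0.23 without Lgr5-CREPTWT mouse 2). Of these 10 markers limma called Gkn3 lower (-1.06, adjusted p = 0.0496, a call lost in 11 of 14 alternatives, 0.0412 to 0.305) and 0 higher, with 5 higher at an unadjusted p below 0.05. Enteroendocrine markers were the secretory lineage with calls. All 6 were lower in both Lgr5-CREPTKO mice than in either control, with a median log2 fold change of -1.41. Of the 6, 4 were called, Ghrl, Cck, Neurod1 and Chgb, with log2 fold changes from -3.50 to -1.18. The list summed to 161.3 and 181.8 FPKM against 49.2 and 60.9 FPKM, led by Chgb. The calls of Ghrl and Cck were lost in 6 of 14 alternatives and those of Neurod1 and Chgb in 7. Goblet markers summed to 1227 and 2137 FPKM against 699.7 and 820.6 FPKM, led by Tff3, with 0 of 6 called and 4 lower at an unadjusted p below 0.05. Of these 6, 5 were lower in both Lgr5-CREPTKO mice than in either control, and the median log2 fold change was -1.04. Tuft markers summed to 17.2 and 33.9 FPKM against 14.4 and 5.87 FPKM, led by Avil, with 0 of 4 tested called and 2 lower at an unadjusted p below 0.05. All 4 tested were lower in both Lgr5-CREPTKO mice than in either control, and their median log2 fold change was -1.26. Paneth markers summed to 1394 and 1005 FPKM against 830.4 and 2445 FPKM, led by Defa24, and enterocyte markers to 277.8 and 379.8 FPKM against 228.4 and 433.8 FPKM, led by Fabp2. limma called 0 of those 6 and 7 genes, with 0 at an unadjusted p below 0.05, and the genotypes overlapped for all of them. Immune markers summed to 10.5, 10.7, 5.41 and 13.5 FPKM, led by Cd68, with 4 of 9 below the filter and 0 of the 5 tested called or below an unadjusted p of 0.05. The 7 stromal and vascular markers were all below the filter, at 0.39, 0.29, 0.24 and 0.66 FPKM in sum, led by Pecam1. No list had a marker at 0 in all 4 mice. The part of the secretory marker differences in the values of the polymerase, Mediator and general factors was not tested.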

How the data were processed

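RNA of sorted Lgr5-GFPhigh cells from 4 mice was analysed. The authors deposited 1 table of FPKM values, with 1 column per mouse, and the submitters' processing notes name HISAT, Bowtie2, RSEM and the build mm10. FPKM is relative to the other genes of a library and carries no counts, so the read depth is unknown. Columns were assigned by the sample titles. Values were analysed as log2(FPKM + 0.5) with limma 3.58.1 in R 4.3.3 (lmFit and eBayes with an intensity trend, two-sided) for the 12621 genes averaging 0.5 FPKM or more, with Benjamini-Hochberg adjustment over all of them. The script was tested on simulated data of assumed depth and spread. The spread was lowered by hand after a first run that made calls where nothing had changed, to below a rough estimate from these mice, which favours the fit. Even so it missed changes of the size of most seen here, and false calls made up more of its calls than the threshold allows. The study's methods name a test built for read counts, which the FPKM table does not hold, so limma was used, with the study's fold threshold as an alternative.

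The members and lists were chosen with earlier results of these data known. The genes named are the called members, the 2 most abundant and the 3 most negative and 3 most positive of each group, Polr2a, members below the filter, the Med12, Med13 and Gtf2a1 pairs, Rprd1b, and in the partner lists the called genes and, except for Pol III, the one of largest change. Other genes were named for their role or after their values were seen. Transcript lengths, exon overlaps and shared 50-base words came from GENCODE M21 and promoters and positions from RefSeq on GRCm38.p6, with Python 3.11.15 and pandas 2.3.3. The longest transcript of a gene may differ from those behind its FPKM. Alternatives changed the pseudocount, filter, scaling, trend and fold threshold, added a replicate block, or dropped 1 mouse. A correction for length and GC content was chosen after seeing the data, and by its design it removes genotype differences that go with either.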

Additional observations from a re-analysis of the deposited data

How the results depend on the processing

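With 2 mice a genotype the calls were sensitive to the settings. Of 826 values for 59 named genes other than Rprd1b under 14 alternatives, 13 did not keep their sign, in 7 genes. The filters, the trend and the replicate block leave a gene's log2 fold change as it is, so its sign could not turn there. The tally therefore overstates how well directions held. One of the 7 genes is Olfm4, whose log2 fold change was 0 with quantile normalization. With every library scaled to the same sum, 0 members and 243 genes were called lower and 85 higher, and the median log2 fold change was -0.058 for all members, 0.0045 for the Gtf2 factors and -0.060 for Mediator. With quantile normalization 0 members were called lower, with medians of -0.095 for all members and -0.036 for the Gtf2 factors, and with each library centred on its median 0 members, -0.11 and -0.047. With no filter on low values 0 genes were called in either direction among 18436 (Rprd1b -1.29, adjusted p = 0.116), and with no intensity trend 0 members and 4 genes were called lower and 0 higher (Rprd1b -1.29, adjusted p = 0.0623). The replicate block gave 0 members and 168 genes called lower and 15 higher. The replicate numbers are names of different mice, and the difference between the mice of one genotype correlated with that of the other at -0.03 across 12621 genes. The correction for length and GC content, chosen after seeing the data, gave 0 members and 170 genes called lower and 19 higher, with medians of -0.013 for all members, 0.037 for the Gtf2 factors, -0.058 for Mediator and -0.00014 for Pol II. With a log2 fold change beyond 1 required, 0 members were called. With 1 mouse left out, where the lone mouse is assumed to vary like the other genotype's, 0 members and 0 genes were called, the medians ranged from -0.15 to -0.068 for all members, from -0.094 to -0.038 for the Gtf2 factors, from -0.17 to -0.064 for Mediator and from -0.23 to -0.14 for Pol II, and Rprd1b from -1.36 to -1.23. The opposite sign was seen for Gtf2f1 with the same sum (0.073), quantile normalization (0.036), median centring (0.020) and the length and GC correction (0.070), and without Lgr5-CREPTWT mouse 1 (0.012) or Lgr5-CREPTKO mouse 1 (0.048), in a range of -0.058 to 0.048 over the mice left out. It was also seen for Polr2g without Lgr5-CREPTKO mouse 2 (0.024; range -0.30 to 0.024), and, with the length and GC correction, for Polr2g (0.088), Polr2d (0.095), Polr2i (0.090), Med12 (-0.058) and Med13 (-0.058). Apart from the fewer genes or mice that some settings test, the cause was not tested.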

Other observations

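Of 8 subunits listed for Pol I, which transcribes ribosomal RNA, limma called 1 lower (12.5%) and 0 higher, against 2.67% and 0.412% of all genes. At unadjusted p < 0.05, 3 were lower (37.5%) and 2 higher (25%), against 15.2% and 9.27% of all genes. Znrd1, a small subunit near the active site of Pol I, was 27.8 and 30.1 FPKM in the Lgr5-CREPTWT mice and 18.4 and 19.7 FPKM in the Lgr5-CREPTKO mice (log2 fold change -0.59, 95% confidence interval -0.81 to -0.37; adjusted p = 0.0426). The call was lost in 9 of 14 alternatives, with an adjusted p from 0.0375 to 0.305, and its log2 fold change was -0.34 with the correction for transcript length and GC content. Its longest coding transcript has 742 bases. The largest subunits of Pol I, Polr1a and Polr1b, were on the other side, at 18.6 and 16.4 FPKM against 23.3 and 22.4 FPKM (0.38, adjusted p = 0.0968, and 0.17 with that correction) and at 26.8 and 27.8 FPKM against 32.4 and 34.5 FPKM (0.29, adjusted p = 0.110). Polr1d, a small subunit shared with Pol III, was the most abundant at 158.3 and 167.1 FPKM against 135.2 and 140.8 FPKM (-0.24, and -0.079 with that correction).

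Of 11 subunits listed for Pol III, which transcribes transfer RNA and 5S RNA, limma called 0, against 2.67% of all genes lower and 0.412% higher. At unadjusted p < 0.05, 3 were lower (27.3%) and 1 was higher (9.09%), against 15.2% and 9.27% of all genes. Polr3b, the second largest subunit, was 10.1 and 10.4 FPKM against 12.3 and 12.4 FPKM (0.26, adjusted p = 0.156). Thus the second largest subunit of each of the 3 polymerases, Polr1b, Polr2b and Polr3b, had a positive log2 fold change, of 0.29, 0.08 and 0.26, none of them called, and each has a longest coding transcript of at least 3998 bases.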
